A study of Rattus norvegicus with 6 samples.

Results

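The transcripts of Cdh1 (ENSRNOG00000020151) and Vim (ENSRNOG00000018087), an epithelial and a mesenchymal gene, were compared between injured and uninjured rat esophagus, each gene alone and as a ratio. They are 2 of the 32623 genes counted, were given by identifier, with no threshold on their values, and both passed the filter on low counts. Gene expression had been measured by sequencing polyadenylated RNA from the whole wall of the esophagus in 6 male wild-type Sprague-Dawley rats, an outbred laboratory strain, aged 8 to 10 weeks. The 3 control rats were untreated. The 3 injured rats had the esophagus rubbed with a 3D-printed device passed through the mouth to a depth of about 9 to 10 cm, for 8 to 10 friction cycles, and all tissue was taken on day 28. Each library came from 1 animal, and the controls had no sham passage of the device, so the handling and the friction cannot be told apart.

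Cdh1 encodes E-cadherin, the adhesion molecule of epithelial adherens junctions, which joins neighbouring cells through its extracellular repeats and binds catenins on the cytoplasmic side. In the esophagus it belongs to the stratified squamous epithelium that lines the lumen. It is a different gene from Fzr1, a cell cycle regulator for which the same name is in use as an alias. Vim encodes vimentin, an intermediate filament protein of fibroblasts, endothelial cells, leukocytes and other cells of mesenchymal origin. A fall of E-cadherin with a rise of vimentin within epithelial cells is the textbook sign of epithelial-mesenchymal transition, a change of cell state described in wound repair and fibrosis. A full-thickness sample holds epithelium, connective tissue and muscle together, so in these libraries fewer cells of a type and less RNA per cell cannot be told apart.

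Libraries held 14181903 to 18376578 counts, and 17381 to 17907 genes had at least 1 count. Of the 14481 genes that passed the filter, 196 (1.35%, with 0.711% higher and 0.642% lower) were called between injured and control esophagus at an adjusted p under 0.05 (edgeR quasi-likelihood test). With the replicate number as a block the same test called 3.77%. The identifiers could not be paired with symbols beyond the 2 genes studied. Other junction genes, keratins, fibroblast, muscle and leukocyte markers were therefore not measured here by name, and the makeup of each tissue piece was not tested.

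Cdh1 was at nearly the same mean level in both groups and varied widely among the control animals. Levels are given as CPM, counts per 1000000 after scaling of the libraries with TMM, the trimmed mean of M-values. Cdh1 stood at 241, 79.0 and 108 CPM in control replicates 1, 2 and 3, from 4022, 1414 and 1492 counts. In injured replicates 1, 2 and 3 it stood at 179, 105 and 135 CPM, from 3363, 1732 and 2300 counts. The injured values all lay inside the range of the controls, between control replicate 1 at the top and control replicate 2 at the bottom. The mean level was 143 ± 86.7 CPM (SD, n = 3) without injury and 140 ± 37.2 CPM (SD, n = 3) after it.

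The fitted difference in Cdh1 was a log2 fold change of -0.03, injured over control, with a standard error of 0.42 (edgeR quasi-likelihood test, adjusted p = 0.975). The 95% interval of the fold ran from 0.489 to 1.96, on the log2 scale from -1.03 to 0.97. That interval ran from -0.05 to 1.22 without control replicate 1, and from -0.36 to 0.56 with the replicate number as a block. The sign of so small a difference depended on single libraries. Without control replicate 1, the animal with the most Cdh1, the log2 fold change was 0.59 (edgeR, adjusted p = 0.222), and without control replicate 2 it was -0.31 (edgeR, adjusted p = 0.691). Over all 17 alternative settings the adjusted p of Cdh1 was 0.222 or higher.

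Vim was higher on average in the injured esophagus, but the difference did not pass the test. Vim stood at 271, 847 and 467 CPM in control replicates 1, 2 and 3, from 4513, 15165 and 6479 counts. In injured replicates 1, 2 and 3 it stood at 806, 1046 and 792 CPM, from 15130, 17225 and 13525 counts. The 3 injured animals were closer to each other than the controls were, and stood above control replicates 1 and 3. Control replicate 2, however, lay above injured replicates 1 and 3, so the groups overlapped. Groups did not overlap, in either direction, for 29.2% of all tested genes, and with the injured group higher for 13.5%. The mean level was 528 ± 293 CPM (SD, n = 3) without injury and 881 ± 143 CPM (SD, n = 3) after it.

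The fitted log2 fold change of Vim was 0.74 with a standard error of 0.39, a fold of 1.67 (edgeR quasi-likelihood test, adjusted p = 0.320). The 95% interval of the fold ran from 0.879 to 3.16, which holds both no change and a rise of 3-fold. The unadjusted p was 0.10, and 21.4% of all tested genes had an unadjusted p under 0.05. Control replicates 1 and 2 moved the estimate in opposite ways. Without control replicate 2, the control with the most Vim, the log2 fold change was 1.25 (edgeR, adjusted p = 0.0978), and without control replicate 1, the control with the least, it was 0.43 (edgeR, adjusted p = 0.349). The estimate was above 0 in all 17 alternatives, and the adjusted p ranged from 0.0951 to 0.542.

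**Figure D1:**
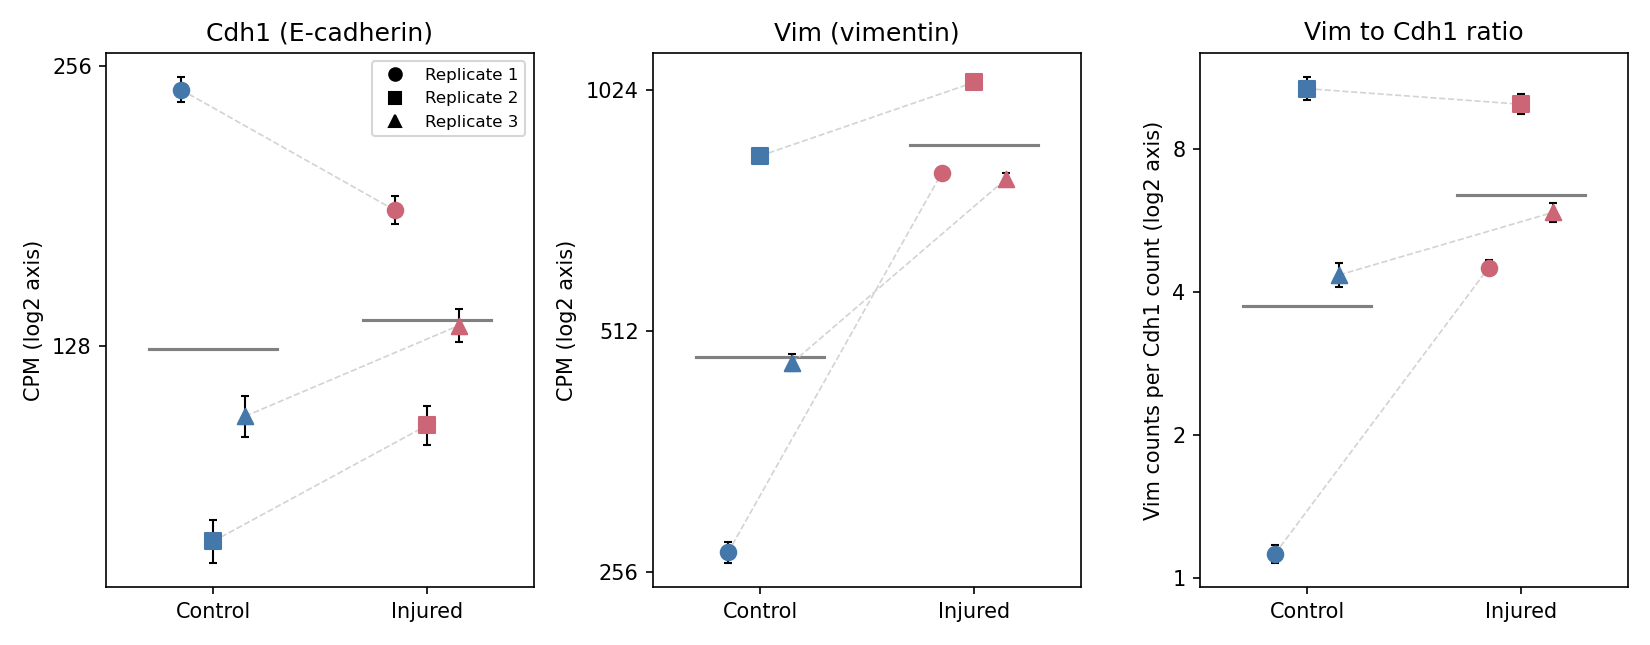
Level of Cdh1 and of Vim in CPM, and Vim counts per Cdh1 count, in each of the 6 libraries on log2 axes. Symbols give the replicate number, black bars the 95% counting interval, grey lines the geometric mean of each group, and dashed lines join same-numbered libraries; the injured values of Cdh1 lie within those of the controls, and control replicate 1 has the most Cdh1 and the least Vim.

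Because both genes were read in the same library, their ratio needs no scaling between libraries. The ratio is of counts and not per transcript length, so it compares animals and says nothing of which protein or transcript was more abundant. There were 1.12, 10.7 and 4.34 Vim counts per Cdh1 count in control replicates 1, 2 and 3. In injured replicates 1, 2 and 3 there were 4.50, 9.95 and 5.88. Control replicate 1 was far below the other 5 animals, control replicate 2 was the highest, and the injured animals lay between them. The exact 95% counting interval of each ratio was narrow beside these differences, from 1.08 to 1.17 in control replicate 1 and from 10.2 to 11.3 in control replicate 2.

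On the log2 scale the Vim to Cdh1 ratio averaged 1.90 ± 1.64 (SD, n = 3) in controls and 2.68 ± 0.58 (SD, n = 3) in the injured group. The difference of 0.78, a fold of 1.71, was smaller than the spread among controls (two-sided exact permutation test over 20 splits, p = 0.60). At 3 animals against 3 this test cannot give a p under 0.10. The difference rested on control replicate 1. Without it the log2 difference was -0.09, and without control replicate 2 it was 1.54, which was then the largest of the 10 possible splits (exact permutation test, p = 0.10). The ratio of a gene to Cdh1 did not overlap between groups for 5.95% of the other tested genes, and the ratio of a gene to Vim for 35.4%. The Vim to Cdh1 ratio was not among them.

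Cdh1 and Vim ran in opposite directions among the controls. Control replicate 1 had the most Cdh1 and the least Vim of all 6 libraries, and control replicate 2 had the least Cdh1 and the second highest Vim. Among the injured animals, replicate 2 had the least Cdh1 (105 CPM) and the most Vim (1046 CPM). Injured replicates 1 and 3 differed in Cdh1, at 179 and 135 CPM, but little in Vim, at 806 and 792 CPM. Over the 6 libraries the log2 levels had a Pearson r of -0.63 (exact permutation p = 0.196) and a Spearman rho of -0.71 (exact permutation p = 0.136). These were the only correlations given a p. Each gene was also correlated with other genes, as described below. Without control replicates 1 and 2, the libraries farthest from the median of Cdh1, r was 0.17 over the remaining 4. Those were control replicate 3 and the injured animals, so this r also holds the difference between groups. Left out singly, a check chosen after the values were seen, control replicate 1 took r to -0.01, while leaving out any other library gave -0.78 to -0.59. The r over all 6 libraries therefore rested on control replicate 1, but it mixes the difference between groups with that among animals. Control replicates 2 and 3 also ran in opposite directions, at 79.0 and 108 CPM of Cdh1 and 847 and 467 CPM of Vim. The relation could not be tested within a group of 3.

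**Figure D2:**
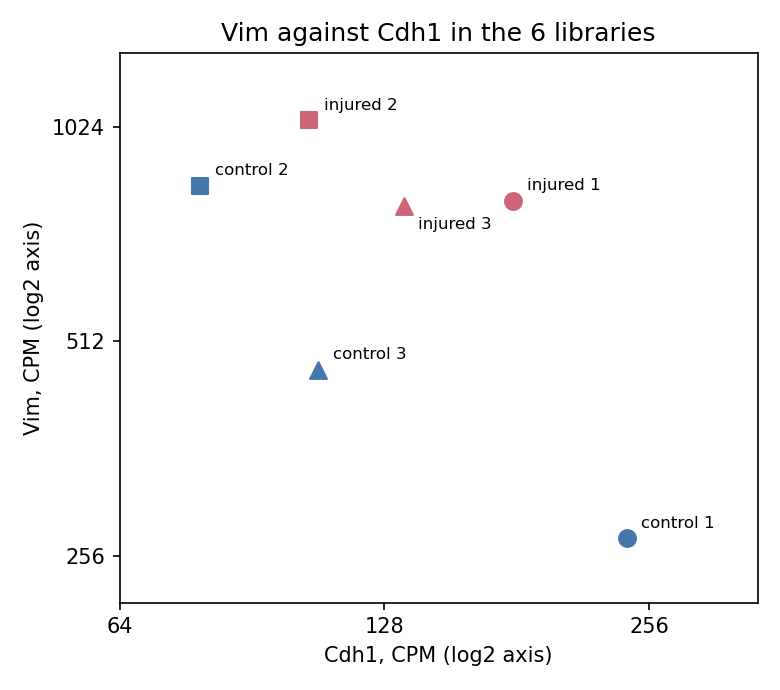
Vim level against Cdh1 level in CPM, both on log2 axes, 1 point per library. Control replicates 1 and 2 lie at opposite corners, at 241 and 79.0 CPM of Cdh1 and 271 and 847 CPM of Vim, and the 3 injured libraries lie between 792 and 1046 CPM of Vim.

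The spread of both genes among control animals was wide beside that of other abundant transcripts. Cdh1 spanned 3.06-fold and Vim 3.13-fold among the 3 controls, and 1.70-fold and 1.32-fold among the injured animals. Counting error was small beside this: the expected coefficient of variation from counting alone was at most 2.66% for Cdh1 and 1.49% for Vim. Among the 1599 tested genes that averaged 100 CPM or more, 6.63% spanned at least 3-fold among the controls. The SD of log2 CPM among controls was 0.83 for Cdh1 and 0.82 for Vim, against a median of 0.17 over those 1599 genes, of which 93.8% and 93.6% had an SD no larger. Among injured animals the SD was 0.38 for Cdh1 and 0.22 for Vim, against a median of 0.11, and 93.0% and 82.9% of the genes had an SD no larger. Cdh1 thus ranked about as high in spread among injured animals as among controls.

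Both members were more alike among injured animals than among controls, as were 72.9% of the same 1599 genes. With 3 animals per group this difference in spread was not tested. The spread in the ratio was wider still. Vim counts per Cdh1 count spanned 9.56-fold among the controls and 2.21-fold among the injured animals. Of the 1597 other genes of that abundance, 1.75% had a ratio to Cdh1 that spanned at least as much among controls, and 4.63% had such a ratio to Vim.

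**Figure D3:**
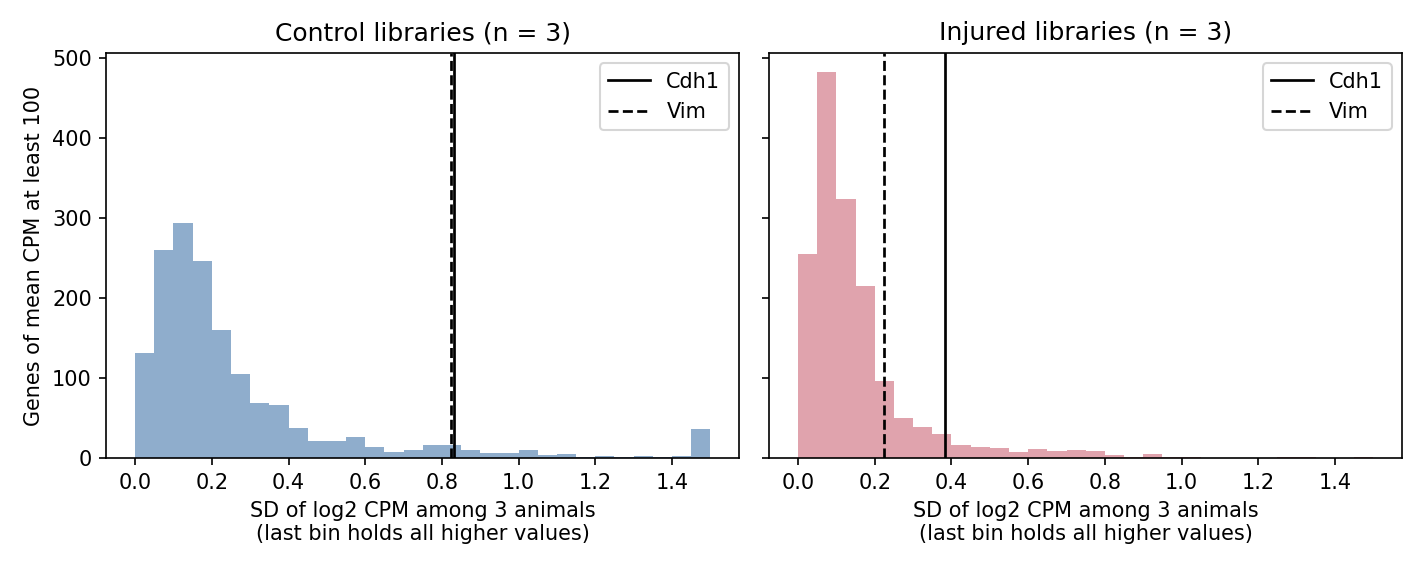
Number of genes averaging 100 CPM or more by the SD of their log2 CPM among 3 animals, for controls (left) and injured animals (right), with vertical lines at Cdh1 and Vim. Cdh1 lies in the right tail of both groups, at 0.83 and 0.38, and Vim lies at 0.82 among controls and 0.22 among injured animals.

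The control and injured groups share replicate numbers, although every library is from a separate animal. The order of the animals by level was compared between the groups by these numbers. Cdh1 was highest in replicate 1, intermediate in replicate 3 and lowest in replicate 2 in both groups, an order that 9.76% of all tested genes shared. The same order of the 3 numbers in both groups, whichever it was, was found in 28.5% of tested genes. Vim was highest in replicate 2 of both groups, but replicates 1 and 3 changed places. The numbers of the highest replicate matched in 46.2% of tested genes. With 3 animals per group such matches also arise by coincidence, which was not tested. The counts were made after the members' values were seen, and no label says what a number stands for.

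Within same-numbered libraries, Vim was higher in the injured animal each time, by 2.98-fold for number 1, 1.24-fold for number 2 and 1.69-fold for number 3. An injured animal above its numbered control in all 3 pairs was found in 24.7% of tested genes. Cdh1 did not move in 1 direction: the injured animal had 0.742 times the control level in pair 1, 1.33 times in pair 2 and 1.25 times in pair 3. The log2 Vim to Cdh1 ratio was higher in the injured animal by 2.00 for number 1 and 0.44 for number 3, and differed by -0.11 for number 2.

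With the replicate number as a block, the standard error of the Cdh1 log2 fold change narrowed from 0.42 to 0.18 and that of Vim from 0.39 to 0.25. The blocked log2 fold change was 0.10 for Cdh1, with a 95% interval from -0.36 to 0.56 (edgeR, adjusted p = 0.756). For Vim it was 0.88, with a 95% interval from 0.25 to 1.504 (edgeR, unadjusted p = 0.0151, adjusted p = 0.107). The block left both genes uncalled. The blocked fit is given because same-numbered libraries deviated together in these same data, and no label says that the animals are paired. The narrower errors therefore rest on a pairing taken from the values themselves, and hold only if the numbers mark something the animals share. The paired difference of the log2 ratio, 0.78, had a two-sided exact sign-flip p of 0.50, where 3 pairs cannot give less than 0.25.

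**Figure D4:**
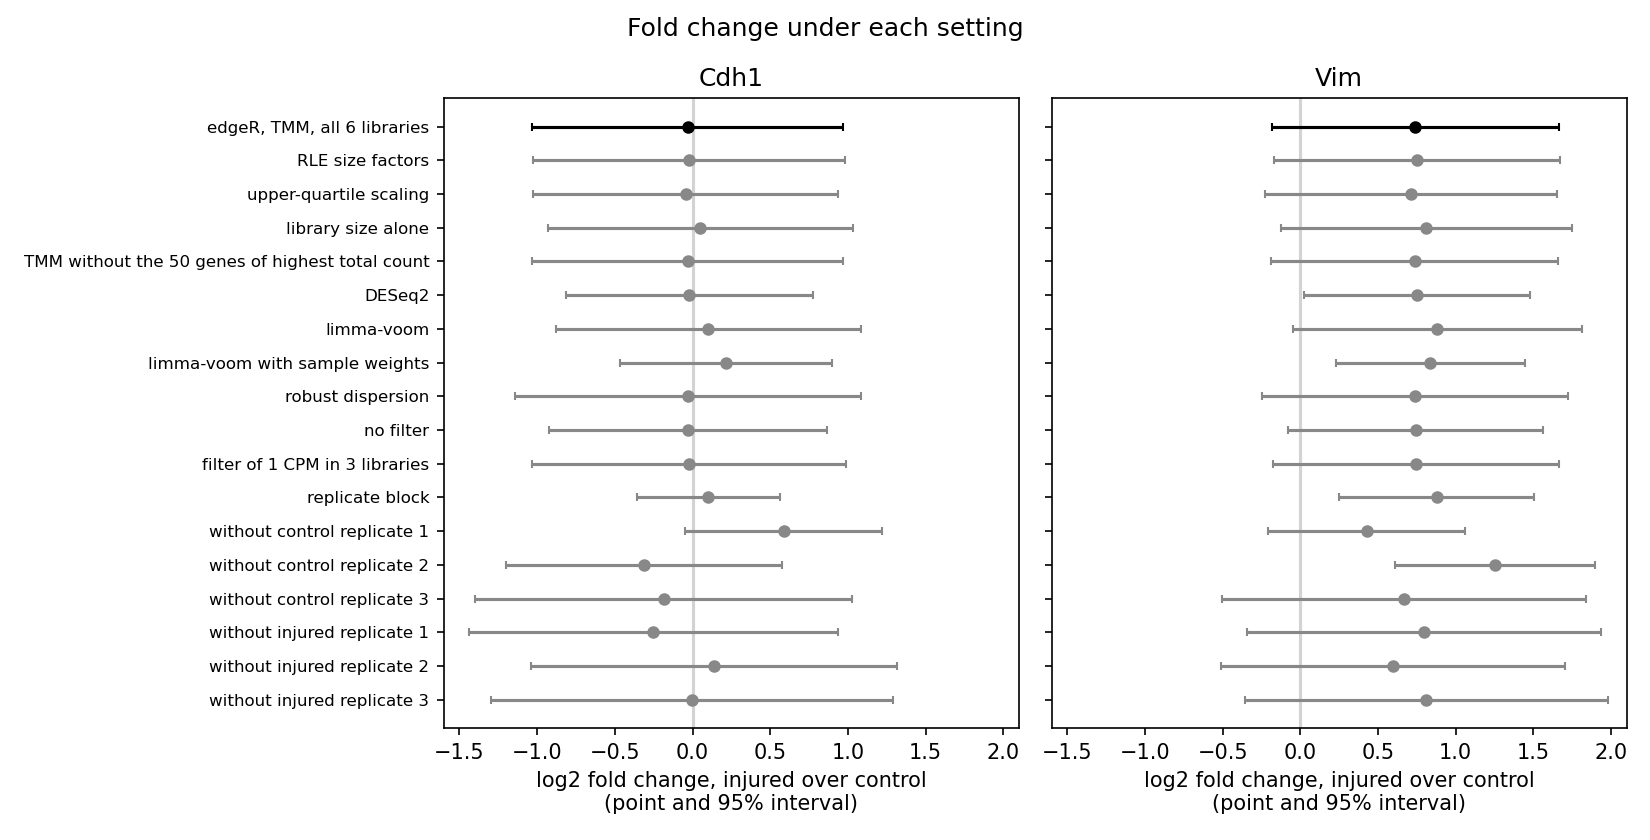
Log2 fold change of Cdh1 and Vim, injured over control, with its 95% interval, under edgeR with TMM scaling on all 6 libraries (black) and under 17 alternative settings (grey). Estimates for Cdh1 lie on both sides of 0, from -0.31 to 0.59, and those for Vim lie between 0.43 and 1.25, with neither gene past an adjusted p of 0.05 in any setting.

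Transcripts whose levels followed those of the 2 genes over the 6 libraries were sought among 9260 other tested genes that averaged 10 CPM or more. A Pearson correlation measures the shape of a pattern and not its size, and over 6 libraries it is imprecise. It was at least 0.9 with Cdh1 for 441 genes (4.76%) and with Vim for 206 genes (2.22%), and at -0.9 or below for 180 and 122 genes. The closest to Cdh1 were ENSRNOG00000050570 (r = 0.998), which ranged only from 93.6 to 119 CPM, and ENSRNOG00000045838 (r = 0.995), which ranged from 13.7 to 33.1 CPM. The closest to Vim was ENSRNOG00000001222 (r = 0.991), with 42.5, 75.9 and 53.2 CPM in controls 1 to 3 and 78.9, 83.5 and 73.9 CPM in injured animals 1 to 3. The most opposed to Vim was ENSRNOG00000049370 (r = -0.990), at 12.7 to 20.7 CPM in controls and 10.6 to 12.4 CPM in injured animals. Neither ENSRNOG00000001222 nor ENSRNOG00000049370 was called between injured and control (edgeR, adjusted p = 0.259 and 0.252). Against this range of patterns the correlation of Cdh1 with Vim over the 6 libraries, -0.63, was not extreme. Of the 9260 genes, 16.0% were as low or lower against Cdh1 and 12.5% against Vim. All these correlations hold the difference between groups as well as that among animals of a group.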

How the data were processed

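The deposited values are raw read counts of each gene in 6 libraries. The submitters' processing notes name the build Rnor_6.0 and, among the tools, HTSeq 0.6.1, HISAT2 2.2.1 and fastp 0.24.1. Which tool did what, the annotation release and the strand setting were not given in the sources used here. The file lists Ensembl identifiers. The names Cdh1 and Vim came with the choice of genes, and the RefSeq table used here (build GRCr8) held 0 Ensembl identifiers, so gene lists and cell type markers by symbol were not applied and no coordinates are given.

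Genes were filtered with filterByExpr (minimum count 10, minimum total 15), scaled by TMM and tested with edgeR 4.0.16 in R 4.3.3 (glmQLFit, glmQLFTest) with group as the only term, adjusted by Benjamini-Hochberg over 14481 genes. A standard error is the size of the log2 fold change over the square root of F, and intervals use the degrees of freedom of the fit. Log2 CPM used a prior count of 2. The ratio was tested by an exact permutation over libraries. Counting intervals (exact Poisson for a level, Clopper-Pearson for the ratio) cover counting error only. For each member, the rule named the 2 most and the 1 least correlated gene; for want of symbols 4 of these 6 are printed. Fits were tested on simulated data drawn with no effect of the replicate number, so that check does not cover such an effect. Alternatives used other scalings and filters, DESeq2 1.42.0, limma-voom 3.58.1, a replicate block and leaving out each library. Deviations from the group means correlated between same-numbered libraries at 0.37, 0.37 and 0.10 (0.104, limit 0.1) for numbers 1 to 3, so the blocked fit is given; no label says what a number stands for. The members, lists and tests were chosen with earlier results of these data known, and the counts by replicate order and by span after the members' values were seen.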

Additional observations from a re-analysis of the deposited data

How the results depend on the processing

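Neither Cdh1 nor Vim was called in any of the 17 alternatives. The Cdh1 log2 fold change, -0.03, changed sign with scaling by library size alone (0.0497), limma-voom (0.10), limma-voom with sample weights (0.21) and the replicate block (0.10), and leaving out 1 library gave -0.31 to 0.59, with values above 0 without control replicate 1 (0.59) or injured replicate 2 (0.14). Vim gave 0.71 to 0.88 under the other settings and 0.43 to 1.25 when 1 library was left out, and its 95% interval lay above 0 with DESeq2, weighted limma-voom, the replicate block and without control replicate 2. The log2 difference of the Vim to Cdh1 ratio, 0.78, was 0.72 from summed counts and -0.0909 to 1.54 when 1 library was left out, below 0 only without control replicate 1. The number of genes called over all genes, 196, was 1397 with DESeq2, 124 with limma-voom, 838 with its sample weights, 546 with the replicate block and 2 to 334 when 1 library was left out. The cause of these shifts was not tested. Counting error is under 3% for both genes in every library, small beside the spread among animals.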
